A study of Danio rerio with 15 samples.

Results

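stc1l encodes a stanniocalcin, the hormone of the corpuscles of Stannius. The gene was picked from the 5686 genes of a kidney RNA-seq table by its symbol, and it was selected on measured values: its low FPKM after injury and its wide spread within groups. FPKM are fragments counted on a gene, scaled by the length of its transcript and by the depth of the library. The table listed stc1l as ENSDARG00000058476, on chromosome 10 from 42849625 to 42856582 on the minus strand (GRCz11), with a length of 1308 bases recovered from the FPKM. It was the 1 member described here, of 5685 genes that were above 0 FPKM in at least 3 samples. Its levels, its group differences and its correlations are therefore given as a description, with no test.

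The corpuscles of Stannius are small endocrine glands of bony fish that lie on or in the kidney and arise from the embryonic renal tubule. Their cells sense calcium in the blood through the calcium-sensing receptor and release stanniocalcin, which lowers calcium uptake at the gills. In zebrafish, stc1l transcripts mark the corpuscles, and transcripts of fgf23, a phosphate-regulating hormone, have also been described there.

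Kidneys of AB strain zebrafish aged 6 months were dissected without injury or 1, 3, 5 and 7 days after an intraperitoneal injection of gentamicin (dpi), an antibiotic that is toxic to the renal tubule. Each of the 5 groups had 3 samples of polyA RNA, 15 in all. The study's methods state that injected fish were kept when they excreted protein in the urine at 1 dpi. Neither the labels nor the methods say how many fish made up a sample, the sex of the fish, the time of day of collection, or whether the corpuscles were removed with the kidney each time. The methods call the 3 samples of a group biological replicates, without saying how these were taken.

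The libraries held between 13876000 and 16368000 reads, as recovered from the FPKM, of which 19.22% to 34.24% fell on the listed genes. These genes are a subset of the genome whose selection rule is not given in the sources used here. Shares of all genes below are within that subset. All 17 proximal tubule markers that were tested were detected in every group, with a summed level of 397.7 to 2947.5 FPKM. Transcripts of other tissues also differed between samples. The 13 ovary markers summed to between 2.105 and 1839.4 FPKM in the uninjured samples alone, and the 17 exocrine pancreas markers to between 172 and 713.4 FPKM.

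stc1l had rank 24 by mean FPKM over the samples among the listed genes. It was highest in uninjured kidneys, by mean and by median, and was lower in most samples after injury. In the uninjured samples its level was 1238.0, 328.5 and 3250.2 FPKM. At 1 dpi it was 54.96, 7.988 and 36.23 FPKM. All 3 samples at 1 dpi lay below all 3 uninjured samples, and this was the only pair of the 5 groups that did not overlap. Over the other genes tested, 20.1% had all 1 dpi samples below all uninjured samples, and 6.9% were called lower at 1 dpi by limma. At 3 dpi the level was 3.674, 434.4 and 0.155 FPKM. At 5 dpi it was 0.9136, 34.43 and 672.5 FPKM. In both of these groups 1 sample stood within the uninjured range and the others were far below it. At 7 dpi the level was 454.7, 1307.0 and 48.73 FPKM, with 2 samples inside the uninjured range and 1 below. Of the 12 injured samples, 8 lay below every uninjured sample.

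The mean level was 1605.6 ± 1495.2 FPKM (SD, n = 3) in uninjured kidneys and 33.06 ± 23.65 FPKM (SD, n = 3) at 1 dpi. It was 146.1 ± 249.7 FPKM at 3 dpi, 235.9 ± 378.4 FPKM at 5 dpi and 603.5 ± 642.2 FPKM at 7 dpi (SD, n = 3 each). By median, the order of the groups from high to low was uninjured (1238.0 FPKM), 7 dpi (454.7 FPKM), 1 dpi (36.23 FPKM), 5 dpi (34.43 FPKM) and 3 dpi (3.674 FPKM), and each neighbouring pair in that order overlapped. On the log2(FPKM + 1) scale the difference from uninjured kidneys was -5.37 (SE 1.25) for 1 dpi and -1.83 (SE 1.69) for 7 dpi. It was -6.37 (SE 2.75) for 3 dpi and -4.94 (SE 2.62) for 5 dpi, where the standard errors were widest. Leaving out 1 sample at a time moved the difference between -4.59 and -6.24 at 1 dpi. It moved between -4.61 (without 3 dpi replicate 3) and -8.89 (without 3 dpi replicate 2) at 3 dpi. At 5 dpi it moved between -2.83 (without 5 dpi replicate 1) and -7.06 (without 5 dpi replicate 3), and at 7 dpi between -0.51 (without 7 dpi replicate 3) and -2.87 (without 7 dpi replicate 2). It stayed below 0 throughout. In bulk samples such as these, fewer corpuscle cells and less stc1l RNA per cell cannot be told apart.

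**Figure D1:**
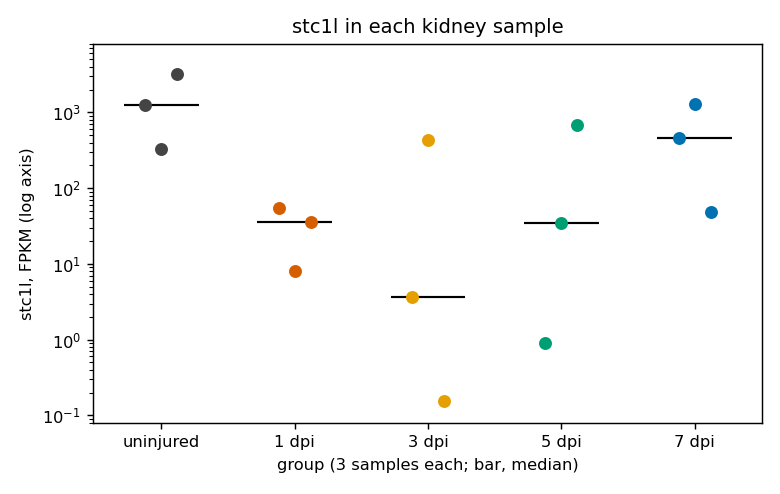
Level of stc1l in FPKM (log axis) in each of the 15 kidney samples, by group, with a bar at the median of each group. The 3 samples at 1 dpi (7.988 to 54.96 FPKM) sit below the 3 uninjured samples (328.5 to 3250.2 FPKM), and the samples at 3 dpi run from 0.155 to 434.4 FPKM.

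The spread between samples of one group was large for stc1l. The highest sample exceeded the lowest 9.894-fold in uninjured kidneys, 6.88-fold at 1 dpi and 26.82-fold at 7 dpi. At 3 dpi the ratio was 2801.9 and at 5 dpi it was 736.1. These gaps rested on many reads at the upper end, with 8345 reads in the highest 3 dpi sample and 13419 in the highest 5 dpi sample. At the lower end the counts were 3 reads in the lowest 3 dpi sample and 17 in the lowest 5 dpi sample. Over all 15 samples the reads on stc1l ran from 3 to 60402.

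The pooled within-group SD of stc1l was 3.11 on the log2(FPKM + 1) scale, the value of rank 5 among the 5685 genes. The median gene had an SD of 0.33 and the 95th percentile was 1.05. Genes with a like SD included zp3a.2 (3.27) and zp3b (3.10), which encode egg envelope proteins, and zar1 (2.99), an oocyte gene. Of the variation of stc1l over the samples, 53% lay within groups, against a median of 32.8% over all genes. Without the highest 3 dpi sample, replicate 2, the pooled SD was 2.55.

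Correlations of stc1l with depth and with the markers of other tissues are given first. The genes described next were chosen by their high r, so their values cannot be set against these. The correlation of stc1l with the total reads was -0.27 over the 15 samples. With the mean of the ovary markers it was 0.25, and 0.19 to 0.29 with the 13 markers one by one. Within groups, as deviations from the group means, the ovary value was -0.20. The mean of the exocrine pancreas markers gave 0.16, the liver 0.21, the skeletal muscle 0.38, and the interrenal and chromaffin cells, the adrenal tissue of the fish kidney, 0.37. The proximal tubule markers gave 0.23 and the distal tubule and collecting duct markers -0.44, the latter from 2 genes with r of -0.52 and 0.03. The erythroid, myeloid, podocyte, neuron and endocrine pancreas markers lay between -0.18 and 0.21. Within groups the distal tubule and collecting duct markers gave -0.53, the proximal tubule markers -0.39, and the other lists -0.27 to 0.27. Single markers reached 0.56 in the interrenal and chromaffin list, 0.55 in the proximal tubule list and 0.54 in the skeletal muscle list, and none of the 12 lists held a gene at 0.8. These correlations are across samples that share the group differences, and the part of dissection in the spread was not tested.

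A small group of genes ran along with stc1l from sample to sample. Over the 5684 other genes, Pearson's r of log2(FPKM + 1) with stc1l had a median of -0.02, and the central 95% of the genes lay between -0.51 and 0.50. Only 8 genes (0.141%) had an r of at least 0.8, and 0 had an r of -0.8 or below. They were zgc:195023, fgf23, areg, cdh16, CASR, frzb, BX957331.1 and bcan. Just inside this limit lay bcan with 0.81, and just outside it lay ngb, with 0.796 over the 15 samples. The 8 genes were on 7 chromosomes, and 0 of them on chromosome 10, where the nearest listed genes to stc1l had r of 0.19 (dbnla, 305.2 kb away) and 0.23 (CU326366.2, 202.4 kb away). Among each other the 28 pairs had r of 0.78 to 0.96, with a median of 0.90, and a median of 0.87 within groups. The 8 genes were chosen by their r with the same stc1l values, so a high r among them follows in part from that choice. They were also measured in the same libraries and share the group differences, so no p is given. Without uninjured replicate 3, the sample highest in stc1l, 5 genes had an r of at least 0.8.

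**Figure D2:**
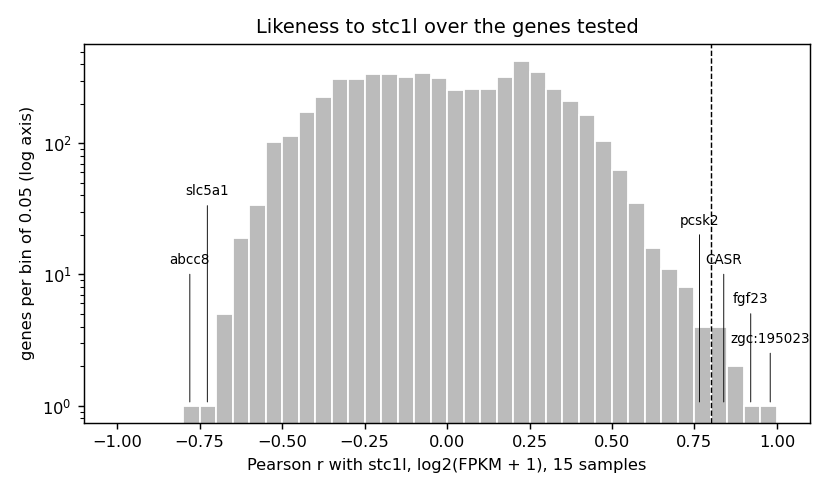
Pearson's r of log2(FPKM + 1) with stc1l over the 15 samples for 5684 genes, as the number of genes per bin of 0.05 (log axis), with a dashed line at 0.8. The median is -0.02, and zgc:195023 (0.98) and fgf23 (0.92) lie at the upper end.

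The gene with the highest r was zgc:195023, which a reference name table calls nppal and the annotation describes as like a natriuretic peptide of the C type. Natriuretic peptides are hormones that act on salt and water balance. Its r was 0.98 over the 15 samples (Spearman's rho 0.96), 0.97 within groups, and 0.98 without the 2 samples farthest from the median of stc1l, which were uninjured replicate 3 and 3 dpi replicate 3. It held 106.6, 40.73 and 167.7 FPKM in uninjured kidneys and 3.087, 1.342 and 5.207 FPKM at 1 dpi. At 3 dpi it held 0.2781, 42.57 and 0.1526 FPKM. At 5 dpi its values were 0.07933, 4.068 and 79.68 FPKM, and at 7 dpi 37.46, 113.0 and 4.491 FPKM. The samples high in stc1l were the samples high in zgc:195023 in each group after injury, except that at 1 dpi replicate 3 held the most.

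The level of zgc:195023 relative to stc1l is a further view of the high r by which the gene was chosen. In the 13 samples with at least 3 reads of both genes it was 5.16% to 16.8% of the stc1l FPKM, with a median of 9.218%, so that the ratio varied 3.255-fold while stc1l itself varied 885-fold. The remaining 2 samples had 2 reads (3 dpi replicate 3, 98.42% of the stc1l FPKM) and 1 read (5 dpi replicate 1, 8.684%) of zgc:195023. In these 2 samples stc1l was lowest too.

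The next gene was fgf23, the phosphate-regulating hormone of bone in mammals. Its r was 0.92 (rho 0.97), 0.88 within groups, and 0.92 without the 2 farthest samples. It held 23.6, 3.458 and 16.54 FPKM in uninjured kidneys and 0.8999, 0.3404 and 0.2869 FPKM at 1 dpi. At 3 dpi it held 0.06703, 4.593 and 0 FPKM and at 5 dpi 0, 0.5983 and 7.276 FPKM. At 7 dpi the values were 4.058, 16.22 and 0.406 FPKM. Relative to stc1l this was 0.509% to 4.261% in 12 samples. The other three samples had 1, 0 and 0 reads of fgf23, where a count of 0 allows up to 3 reads, and were the 3 samples lowest in stc1l.

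areg is named for amphiregulin and described in the table as a proheparin-binding EGF-like growth factor, both of which are ligands of the EGF receptor. Its r was 0.90 (rho 0.91, 0.92 within groups, 0.88 without the 2 farthest samples). It held 64.33, 18.12 and 103.5 FPKM in uninjured kidneys and 1.607, 1.476 and 3.084 FPKM at 1 dpi. At 3 dpi the levels were 0.1826, 22.04 and 0.3833 FPKM, and at 5 dpi 0.1993, 2.228 and 85.15 FPKM. At 7 dpi it held 3.044, 24.48 and 1.827 FPKM. Uninjured samples held 3.184% to 5.515% as much areg as stc1l and the 7 dpi samples 0.6695% to 3.75%, so the 2 ranges overlapped. Over the 15 samples areg ran from 0.6695% to 247.2% of stc1l, the latter in 3 dpi replicate 3 with 3 reads of stc1l. It was 18.47% in 1 dpi replicate 2 and 12.66% in 5 dpi replicate 3.

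**Figure D3:**
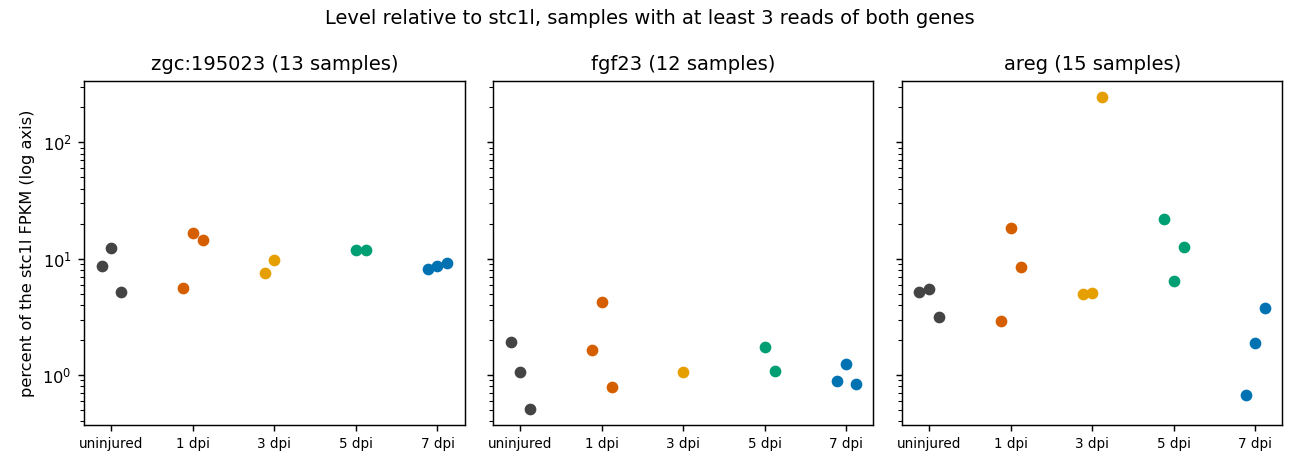
FPKM of zgc:195023, fgf23 and areg as a percent of the stc1l FPKM of the same sample (log axis), by group, for samples with at least 3 reads of both genes. zgc:195023 lies between 5.16% and 16.8%, and areg reaches 247.2% in 1 sample at 3 dpi, which had 3 reads of stc1l.

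The other genes of the group moved less steeply. cdh16, which encodes the kidney-specific cadherin of mammals, had an r of 0.89 (0.89 within groups, 0.86 without the 2 farthest samples). Its values were 5.621, 2.659 and 6.067 FPKM in uninjured kidneys and 0.4655, 0.402 and 0.5882 FPKM at 1 dpi. It held 0.3408, 3.682 and 0.1568 FPKM at 3 dpi, 0.6398, 0.4035 and 7.581 FPKM at 5 dpi, and then 2.451, 4.511 and 0.4439 FPKM at 7 dpi. The 8 samples with 54.96 FPKM of stc1l or less had 0.6398 FPKM of cdh16 or less, and the 7 others had at least 2.451 FPKM.

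CASR encodes the calcium-sensing receptor, by which corpuscle cells read blood calcium. Its r was 0.84 (rho 0.82, 0.80 within groups, 0.78 without the 2 farthest samples). The levels were low, at 1.858, 1.286 and 1.615 FPKM in uninjured kidneys and 0.4942, 0.6628 and 0.8379 FPKM at 1 dpi. At 3 dpi it held 0.3698, 0.8414 and 0.3103 FPKM, at 5 dpi 0.5709, 0.5609 and 1.829 FPKM, and at 7 dpi 0.7023, 1.437 and 0.5269 FPKM. These values stood on 13 to 79 reads a sample. CASR did not go to 0 where stc1l was lowest, and its slope was the lowest of these genes. Per doubling of stc1l, among samples with at least 3 reads of both genes, the log2 FPKM of CASR rose by a slope of 0.17, against 0.94 for zgc:195023, 0.84 for fgf23, 0.66 for areg and 0.40 for cdh16.

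frzb encodes a secreted antagonist of Wnt ligands, and its r was 0.83 (0.83 within groups, 0.82 without the 2 farthest samples). It ranged from 0.8848 FPKM in 3 dpi replicate 1 to 17 FPKM in uninjured replicate 3. BX957331.1, annotated as synuclein gamma b, had an r of 0.83 at a mean of 0.829 FPKM. bcan, the gene of brevican, a matrix proteoglycan of nervous tissue, had an r of 0.81 at a mean of 0.5184 FPKM. Both were below the mean of 1 FPKM set for naming a gene and were named after their values were seen. Without the 2 farthest samples bcan had 0.75, and with it CASR (0.78) fell under the limit of 0.8, so that 6 genes remained above it in all.

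Below the limit, pcsk2, which encodes a prohormone convertase of neuroendocrine cells, had an r of 0.77 (0.81 within groups). It held 12.5, 5.773 and 31.47 FPKM in uninjured kidneys and 2.012, 9.889 and 1.932 FPKM at 7 dpi, and its highest value was 36.13 FPKM, in 5 dpi replicate 3. Among genes with a mean of at least 1 FPKM, the next by r were zgc:194330, sema7a and tnr with 0.71 each. Then came her15.1 with 0.70, and msrb2 and s100b with 0.68. Genes of a lower mean are left out of this order, such as TNC with 0.78 at a mean of 0.3697 FPKM. Of the 5684 genes, 12 had an r of at least 0.75 and 20 of at least 0.7. Of the genes in this order, sema7a is a semaphorin, tnr encodes the matrix protein tenascin R and her15.1 is a Notch target. msrb2 is a methionine sulfoxide reductase and s100b a calcium-binding protein of glia in mammals. Within groups r was 0.40 for zgc:194330, 0.54 for sema7a, 0.40 for tnr, 0.78 for her15.1, 0.58 for msrb2 and 0.42 for s100b. pcsk2 was the highest of 5 tested genes in a list on hormone granules and prohormone processing, described below. The r of these 5 genes ran from -0.47 to 0.77, with a median of -0.08.

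**Figure D4:**
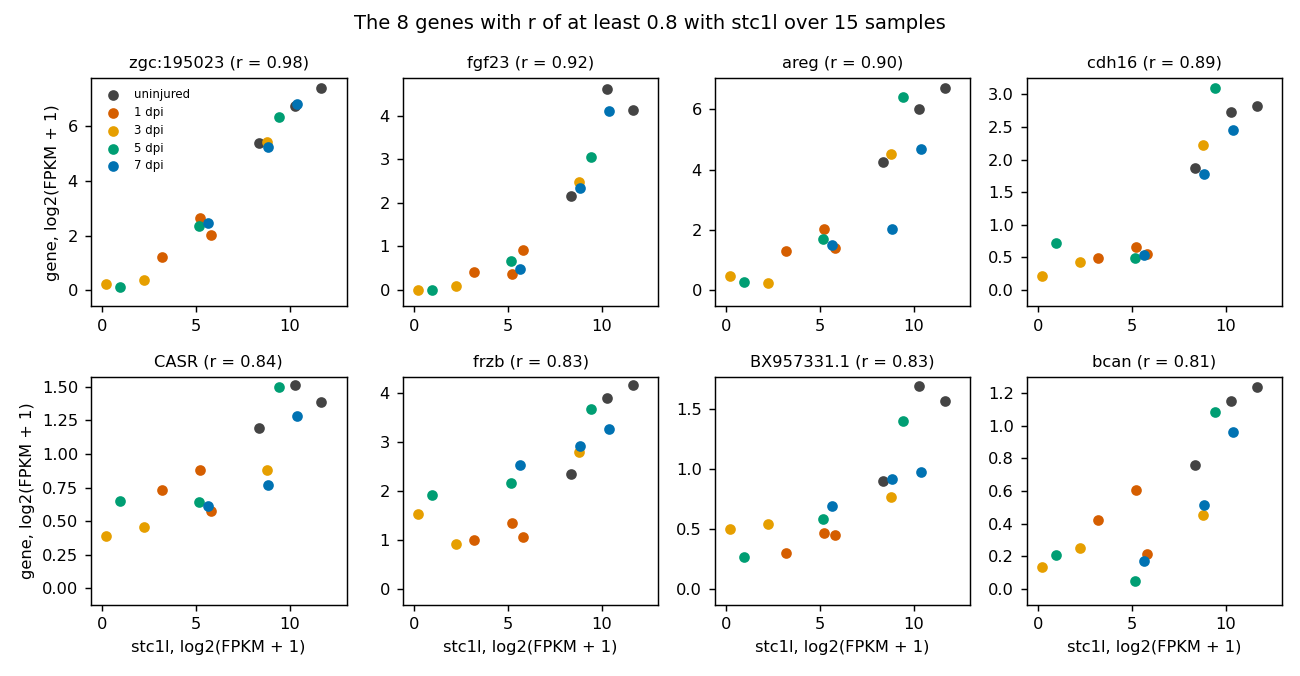
log2(FPKM + 1) of the 8 genes with an r of at least 0.8 (vertical axes) against that of stc1l (horizontal axes) in the 15 samples, coloured by group. Each vertical axis has its own scale. In 3 dpi replicate 3, where stc1l was lowest, fgf23 was at 0 and zgc:195023 at 0.205. In that sample CASR was at 0.390, areg at 0.468 and frzb at 1.523.

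When the group means were taken out, 9 genes had an r of at least 0.8 with stc1l and 8 had -0.8 or below, over the 5684 genes. The highest were zgc:195023, areg, cdh16 and fgf23 with 0.97, 0.92, 0.89 and 0.88. ppp4r1l had 0.85 within groups but 0.07 over the 15 samples. prdx5, a peroxiredoxin, had 0.80 within groups and -0.00 over the 15 samples, and irf4l, an interferon regulatory factor, had 0.80 and 0.22. The values were 0.77 and 0.21 for spata2l, and 0.77 and -0.35 for zgc:66427. For these genes the r was high within groups and not over all samples, unlike the genes led by zgc:195023. They were picked from the upper end of 5684 values, and the lower end held nearly as many genes (8 against 9). The lowest within-group value was -0.91, for slc25a27, a mitochondrial carrier, which was chosen after its value was seen.

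At the other end of the scale abcc8, the sulfonylurea receptor of potassium channels, had an r of -0.78 and slc5a1, a sodium-glucose cotransporter, -0.73. For abcc8 the values were 0.8752, 0.8386 and 0.867 FPKM in uninjured kidneys, and its highest level was 3.26 FPKM, in 3 dpi replicate 1. slc5a1 was lowest, at 14.15 FPKM, in 7 dpi replicate 2 and highest, at 97.53 FPKM, in 1 dpi replicate 3. The lectin gene itln1 and si:ch211-132b12.6 had -0.66, and the desmoglein gene dsg2.1 had -0.64.

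The stanniocalcin family has other members, of which stc2a was listed and stc1 and stc2b were not analysed here. stc2a held 3.581 to 31.05 FPKM in uninjured kidneys and 0.9306 to 6.349 FPKM at 1 dpi, with an r of 0.14 with stc1l. Its difference from uninjured kidneys was -1.69 at 1 dpi on the log2(FPKM + 1) scale (SE 0.80, limma adjusted p = 0.17), and did not pass the test at any time point. With a mean of 524.8 FPKM over the 15 samples, against 7.616 FPKM for stc2a, stc1l was the more abundant by mean. By median stc1l was the lower of the 2 at 3 dpi (3.674 against 7.168 FPKM) and the higher in the other groups.

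To describe the genes around this hormone, 129 genes were listed in 7 lists on the stanniocalcin family, corpuscle formation, calcium, phosphate and magnesium handling, the Papp-a and Igf axis that stanniocalcins act on in mammals, and hormone granules. Of these, 51 were in the table, and 50 without stc1l were tested. At 1 dpi 5 of the 50 rose and 2 fell (limma, adjusted p below 0.05 over the 5685 genes), while over all genes 12.9% rose and 6.9% fell. At 3 dpi 1 rose and 3 fell, against 6.4% and 6.91% of all genes. At 7 dpi 1 rose and 12 fell, against 4.78% and 12.4% of all genes, so that the share that fell was above the share of all genes at that time point alone. The counts changed when 1 sample was left out. At 7 dpi 0 list genes passed without any one of the 7 dpi samples. Without uninjured replicate 1 it was 3 and without uninjured replicate 3 it was 6. The calls over all genes fell too, from 975 to 0, 7 and 0 without 7 dpi replicates 1, 2 and 3. They were 153 without uninjured replicate 1 and 456 without uninjured replicate 3. Without uninjured replicate 2, 18 list genes and 1916 of all genes passed. At 3 dpi 0 list genes passed without uninjured replicate 1, 3 dpi replicate 2 or 3 dpi replicate 3. Without uninjured replicate 3 or 3 dpi replicate 1 it was 1, and without uninjured replicate 2 it was 12. Over all genes the calls went from 757 to between 50 and 361, or to 1678 without uninjured replicate 2. At 1 dpi 11 list genes passed without uninjured replicate 2, with 1284 of all genes against 1127. Scaling by median-of-ratios left 7 list genes at 7 dpi and quantile normalization 5. Over all genes these scalings left 722 and 571 calls, against 975.

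At 5 dpi 0 of the 50 passed in limma (2 without uninjured replicate 3, 1 without 5 dpi replicate 1). Of all genes, 6.7% were called higher and 1.46% lower. Leaving out 1 sample took the calls over all genes from 464 to between 0 and 189. The median log2 difference over the 50 genes was -0.10, -0.45, -0.43 and -0.51 at 1, 3, 5 and 7 dpi. Over all genes it was -0.09, -0.13, -0.09 and -0.22. The 50 genes thus had lower medians than all genes at 3, 5 and 7 dpi.

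**Figure D5:**
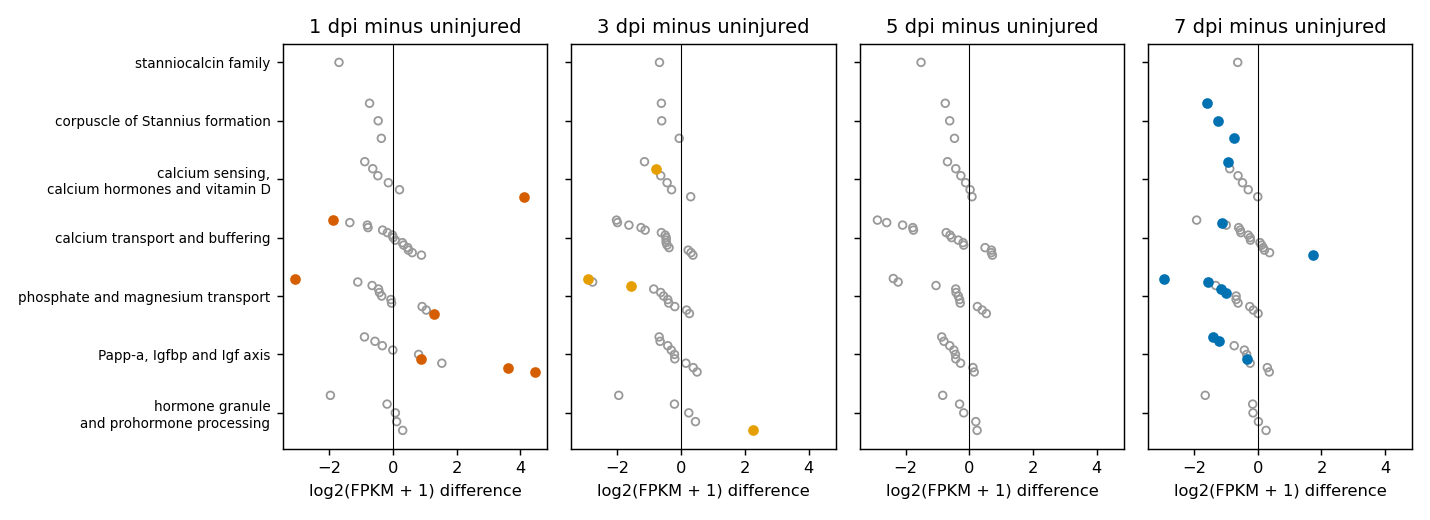
Difference of mean log2(FPKM + 1) from uninjured kidneys (horizontal axes) at 1, 3, 5 and 7 dpi for the 50 tested genes of the 7 lists (rows, 1 point per gene). Filled points passed the limma test at an adjusted p below 0.05, which were 7, 4, 0 and 13 genes in the order of the panels.

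Of the genes that form the corpuscles in the embryo, 3 were tested: sim1a, a transcription factor required for the corpuscles in zebrafish, and irx1a and irx3b, Iroquois factors of the distal tubule from which they arise. None passed the test at 1, 3 or 5 dpi, and all 3 fell at 7 dpi, when 12.4% of all genes were called lower. sim1a held 1.909, 2.419 and 2.443 FPKM in uninjured kidneys, in rising order, and 0.7491, 0.9836 and 1.014 FPKM at 7 dpi (log2 difference -0.76, SE 0.16, limma adjusted p = 0.031). irx1a held 20.16, 21.83 and 34.81 FPKM in uninjured kidneys and 9.517, 9.99 and 10.28 FPKM at 7 dpi (-1.24, SE 0.24, limma adjusted p = 0.026). irx3b held 40.54, 46.53 and 63.12 FPKM in uninjured kidneys and 14.86, 15.79 and 16.23 FPKM at 7 dpi (-1.60, SE 0.20, limma adjusted p = 0.016). In each of the 3 genes all 7 dpi samples lay below all uninjured samples, as they did in 27.4% of all genes. Over 13 alternative settings the fall at 7 dpi passed in 9 for irx3b and in 5 each for sim1a and irx1a. None of the 3 passed when any one of the 7 dpi samples was left out (limma adjusted p = 0.058 to 0.11). In those fits 0 to 7 of all genes passed. Their r with stc1l was 0.38 for sim1a, -0.31 for irx1a and -0.20 for irx3b.

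Among calcium sensing, calcium hormones and vitamin D, 6 genes were tested. Their r with stc1l had a median of 0.09 and ran from -0.26 to 0.84, the latter for CASR. cyp24a1, the enzyme that inactivates vitamin D, rose from 0.6331 ± 0.6164 FPKM (SD, n = 3) to 27.69 ± 10.65 FPKM at 1 dpi (log2 difference 4.12, SE 0.41, limma adjusted p = 0.0017). The samples at 1 dpi held 16.04 to 36.93 FPKM, and no sample of another group held more than 1.409 FPKM. Over all genes 24.6% had all 1 dpi samples above all uninjured samples. CASR fell at 3 dpi (-0.79, SE 0.20, limma adjusted p = 0.048), a call that held in 4 of 12 alternative settings. The vitamin D receptor gene vdra fell at 7 dpi, from 3.118 to 3.215 FPKM in uninjured kidneys to 0.7411 to 1.901 FPKM (-0.94, SE 0.23, limma adjusted p = 0.044), which held in 4 of 13. trpv6, the epithelial calcium channel through which fish take up calcium, was not analysed here.

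Of 15 genes of calcium transport and buffering, the parvalbumin gene pvalb6 fell at 1 dpi from 23.93 to 55.42 FPKM to 8.046 to 11.06 FPKM (-1.87, SE 0.33, limma adjusted p = 0.013). At 7 dpi pvalb8, another parvalbumin, rose (1.72, SE 0.41) and slc8a1b, a sodium-calcium exchanger, fell (-1.13, SE 0.27), both with a limma adjusted p of 0.040. The calls at 7 dpi held in 6 of 13 alternative settings for pvalb8 and in 5 for slc8a1b. The remaining genes of this list did not pass at any time point.

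Of 11 genes of phosphate and magnesium transport, fgf23 fell at 1 dpi (-3.07, SE 0.64, limma adjusted p = 0.021). All its 1 dpi samples lay below all uninjured samples, as they did in 20.1% of all genes. The call held in 7 of 13 alternative settings and was lost on leaving out any sample but uninjured replicate 2 (limma adjusted p = 0.057 to 0.068). fgf23 and CASR had been singled out by their r with stc1l over the same samples, so their falls are no separate evidence on stc1l. The r of the 11 genes with stc1l had a median of 0.05 and ran from -0.30 to 0.92, the latter for fgf23. The phosphate transporter gene slc20a1b rose at 1 dpi from 39.22 ± 5.666 to 95.99 ± 3.384 FPKM (SD, n = 3; log2 difference 1.28, SE 0.19, limma adjusted p = 0.0073). slc34a1a, the sodium-phosphate cotransporter of the proximal tubule, held 200.4 ± 84.5 FPKM in uninjured kidneys and fell to 27.56 ± 18.4 FPKM at 3 dpi (-2.94, SE 0.52, limma adjusted p = 0.022) and 27.14 ± 17.33 FPKM at 7 dpi (-2.96, SE 0.53, limma adjusted p = 0.024). The proximal tubule markers, of which slc34a1a is one, summed to 1859.1 to 2947.5 FPKM in uninjured kidneys and to 594.5 to 641 FPKM at 7 dpi. The part of this lower level in the fall of slc34a1a was not tested. Over 13 alternative settings the call of slc20a1b held in 12 and those of slc34a1a in 8 at each time point.

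The phosphate transporter gene slc20a1a fell at 3 dpi (-1.59, SE 0.25, limma adjusted p = 0.018) and at 7 dpi (-1.55, SE 0.26, limma adjusted p = 0.022). At 7 dpi kl, which encodes Klotho, the co-receptor of Fgf23, fell from 10.9 to 13.66 FPKM to 4.461 to 6.407 FPKM (-1.01, SE 0.20, limma adjusted p = 0.029). The channel kinase gene trpm7 fell as well (-1.15, SE 0.20, limma adjusted p = 0.024). The calls of slc20a1a held in 8 of 13 alternative settings at each time point, and those of kl and trpm7 in 6.

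In the Papp-a and Igf list of 9 genes, both igfbp1 copies rose at 1 dpi. igfbp1a, which encodes a binding protein of insulin-like growth factors, went from 52.52 ± 13.98 to 670.2 ± 215.2 FPKM (SD, n = 3; log2 difference 3.63, SE 0.33, limma adjusted p = 0.0012). igfbp1b went from 0.6036 ± 0.373 to 38.06 ± 22.17 FPKM (4.48, SE 0.44, limma adjusted p = 0.0016). Both sets of 1 dpi samples lay above every sample of the other groups. Over all genes 24.6% had all 1 dpi samples above all uninjured samples, and the share above every other group was not taken. irs2a, an adaptor of the insulin and Igf receptors, rose at 1 dpi (0.88, SE 0.21, limma adjusted p = 0.029) and fell at 7 dpi (-1.22, SE 0.16, limma adjusted p = 0.016). irs2b fell at 7 dpi (-1.41, SE 0.27, limma adjusted p = 0.028), as did pappaa (-0.33, SE 0.08, limma adjusted p = 0.044), the protease that mammalian stanniocalcins inhibit, which held 0.3641 FPKM on average in uninjured kidneys. The rise of irs2a at 1 dpi held in 6 of 13 alternative settings and was lost on leaving out any sample but 1 dpi replicate 3 (limma adjusted p = 0.061 to 0.088). Its fall at 7 dpi held in 9, that of irs2b in 6, and that of pappaa in 4 of 12.

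Of 5 genes of hormone granules and prohormone processing, snap25a, a vesicle fusion protein of neurons and endocrine cells, rose at 3 dpi (2.25, SE 0.54, limma adjusted p = 0.045), a call that held in 7 of 13 alternative settings. It is also 1 of the 3 neuron and ganglion markers tested, which summed to 9.141 to 23.89 FPKM at 3 dpi and 5.968 to 18.11 FPKM in uninjured kidneys. These sums include snap25a itself, which held 4.48 to 15.45 FPKM at 3 dpi and 0.2361 to 2.569 FPKM in uninjured kidneys. The part of such tissue was not tested. pcsk2 had differences of -1.96 at both 1 and 3 dpi, which did not pass (limma adjusted p = 0.071 and 0.11).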

How the data were processed

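PolyA RNA of 15 kidney samples was sequenced as paired-end reads. The authors deposited FPKM for 5686 genes, a subset of the genome whose selection rule is not given in the sources used here, with a group code that was not used. By the methods and the submitters' processing notes, reads were cleaned with in-house scripts, assembled with StringTie (v1.3.3b), counted with featureCounts (v1.5.0-p3) on GRCz11, and scaled for gene length and depth. The aligner is not given in the sources used here. DESeq2 was the authors' test.

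Reads were recovered from the FPKM as whole multiples of 1 read: all 5686 genes (100.00%) came out whole within 0.15 of a read, and 12 of 12 microRNA lengths equalled their annotated spans. The search accepted only whole reads, and the microRNA spans supplied the candidate depths, so neither is an independent check. The recovered depths, 13876000 to 16368000 reads, are estimates, and a paired-end read may stand for a pair. A gene under 3 reads counted as at the floor.

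Groups came from sample titles and labels. stc1l was compared by group mean, SD and Pearson's r on log2(FPKM + 1), a pseudocount of 1, for genes above 0 FPKM in at least 3 samples. Such fold changes understate those of low genes. Each time point was tested against uninjured kidneys with limma 3.58.1 (R 4.3.3; lmFit and eBayes with trend, two-sided) on 6 samples, since FPKM are not counts, with Benjamini-Hochberg adjustment over 5685 genes. Correlations were computed with numpy 2.4.6, with the ranks for Spearman's rho from scipy 1.17.1. The limma script was tested on simulated data.

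The gene, the lists and the tests were chosen with earlier results of these data known. Genes named were the 12 with the highest r, the 12 with the highest within-group r and the 5 with the lowest r among genes above 0 FPKM in 8 samples with a mean of 1 FPKM, the list genes that passed a test, the genes that define a list, and the neighbours of stc1l. Alternatives were a replicate block, a smaller pseudocount (0.1), a filter at a mean of 1 FPKM or none, scaling by median-of-ratios or quantiles, 1 fit on 15 samples, Spearman's rho, within-group r, and leaving out each sample. Gene symbols came from the table and a name table, which held 5265 of the gene IDs.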

Additional observations from a re-analysis of the deposited data

Results flagged for a closer look

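In 6 of the 50 tested list genes every sample of 1 time point lay above all 3 uninjured samples and every sample of another lay below them. Over all genes 10.9% showed this pattern, a like share. The difference between the time points was not tested, and is given as the difference of mean log2(FPKM + 1). For irs2a it was 1.3 between 1 and 3 dpi and 2.1 between 1 and 7 dpi, with 19.54 to 26.05 FPKM at 1 dpi and 4.242 to 4.541 FPKM at 7 dpi. For its paralogue irs2b it was 2.41 between 1 and 5 dpi and 2.95 between 1 and 7 dpi. For the phosphate transporter slc20a1a it was 2.52 between 1 and 3 dpi and 2.48 between 1 and 7 dpi. For pappaa it was 0.32 between 5 and 3 dpi and 0.44 between 5 and 7 dpi, at levels of 0.02113 to 0.4904 FPKM. For TRPM6 it was 0.66 between 5 and 1 dpi, and for the mitochondrial exchanger slc8b1 1.16 between 5 and 3 dpi. Groups of 3 samples were too small to test for single samples far from the others. Leaving out uninjured replicate 2 raised the limma calls over all genes from 757 to 1678 at 3 dpi and from 975 to 1916 at 7 dpi. Leaving out any other sample lowered them at these time points. At 5 dpi the calls went from 464 to 0 without uninjured replicate 2.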

How the results depend on the processing

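The groups carry replicate numbers 1 to 3, but same-numbered samples are not the same kidney, and their deviations correlated on average at -0.46, -0.16, 0.31 and 0.10 between uninjured kidneys and 1, 3, 5 and 7 dpi. Blocking on this number uses a pairing the labels do not state. With it, the list genes that passed limma numbered 4, 0, 0 and 0, against 7, 4, 0 and 13. Of all genes, 314 passed at 1 dpi and 0 at 3, 5 and 7 dpi. A fit on all 15 samples gave 16, 13, 6 and 18, with 1987, 1493, 1063 and 1315 of all genes called. Leaving out 1 sample gave 5 to 11, 0 to 12, 0 to 2 and 0 to 18. Over all genes it gave 539 to 1284, 50 to 1678, 0 to 189 and 0 to 1916, against 1127, 757, 464 and 975. A pseudocount of 0.1 gave 1 list gene at 5 dpi, with 426 of all genes called. At 7 dpi median-of-ratios scaling gave 7 and quantile normalization 5, with 722 and 571 of all genes against 975. These scalings moved the median over all genes at 7 dpi from -0.22 to -0.11 and -0.06, and quantile normalization moved it at 3 dpi from -0.13 to 0.08. The share of higher calls over all genes went from 48.1% to 59.9% and 70.4% at 3 dpi and from 27.9% to 47.1% and 62.5% at 7 dpi. No call reversed. igfbp1a, igfbp1b, cyp24a1 and pvalb6 passed at 1 dpi in 13 of 13 settings.

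The genes with an r of at least 0.8 with stc1l numbered 8. Requiring a mean of 1 FPKM left 5 and Spearman's rho gave 16. Leaving out 1 sample gave 5 to 11. The pooled SD of stc1l ran from 2.55 to 3.28 when 1 sample was left out. The lowest stc1l and fgf23 values rest on 0 to 17 reads.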
